A study of Mus musculus with 9 samples.

Results

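The 10 genes described here encode the cyclins of the G1 phase, the kinases that the D cyclins switch on, and the inhibitors of these kinases. They were taken by symbol: *Ccnd2*, *Ccnd3*, *Ccne1*, *Ccne2*, *Cdk4*, *Cdk6*, *Cdkn1a*, *Cdkn1b*, *Cdkn2c* and *Cdkn2d*. All 10 were found among the 21883 genes of the deposited table. The choice by symbol uses no expression value, but it was made with earlier results of these data known. RNA had been sequenced from invariant natural killer T (iNKT) cells, sorted from the mouse thymus by a CD1d tetramer and by CD24, CD44 and NK1.1, in 9 libraries. Of these, 3 came from WT stage 2 cells and 3 from WT stage 3 cells of 6-week-old C57BL/6 mice. The remaining 3 came from *Med23*-deficient stage 2 cells on the same C57BL/6 background, for which the labels give no age. *Med23* encodes a subunit of the Mediator complex, and according to the methods of the study it was removed from floxed alleles by a Cre recombinase under the *Cd4* promoter, by the double-positive thymocyte stage. In the mutant, any loss of the gene therefore began in T cell precursors before the iNKT lineage formed. Stage 2 cells lack and stage 3 cells carry the surface protein NK1.1, and the study asked what changes between these stages and what changes when *Med23* is lost.

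D cyclins bind Cdk4 or Cdk6 and start the phosphorylation of the retinoblastoma protein, which frees E2F transcription factors, and E cyclins bind Cdk2 and complete that step before DNA synthesis. The inhibitors fall into a family that binds only Cdk4 and Cdk6, to which *Cdkn2c* and *Cdkn2d* belong, and a family that acts on cyclin-bound kinases more widely, to which *Cdkn1a* and *Cdkn1b* belong. In thymic iNKT cells division is known to be most intense early in development and to slow as the cells mature.

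Values are FPKM, fragments scaled to transcript length and to the mapped total. Read counts are not part of the table, so library depth is unknown. Between 15584 and 17333 genes lay above 0 per library, and a single small RNA gene model, *Gm23935*, held 62.2% to 71.9% of the summed FPKM. The WT stage 2 libraries held 5.51, 5.15 and 6.74 FPKM of *Med23* and the *Med23*-deficient ones 4.8, 3.60 and 3.92, and these groups did not overlap. The difference of -0.41 on the log2(FPKM + 1) scale did not pass the test (limma adjusted p = 0.552), and how many of the remaining fragments come from outside the deleted part cannot be told from a gene value. *Klrb1c*, the gene of NK1.1, was at 7.65 to 26.2 FPKM in WT stage 2, 57.3 to 95.1 in WT stage 3 and 2.61 to 4.60 in the mutant. *Cd24a*, which marks earlier precursors, reached at most 0.72 in any library. Among 9 markers of double-positive thymocytes the summed FPKM was 8.17 to 11.2 in WT stage 2, 3.75 to 5.31 in WT stage 3 and 6.75 to 10.7 in the mutant. Much of the difference lay in *Themis*, at 3.39 to 7.60 in WT stage 2, at most 0.53 in WT stage 3 and 5.30 to 7.43 in the mutant, while *Rag2* and *Ptcra* were at most 0.26. Most of the WT stage 3 sum thus came from markers of the list not named here. Of 8 B cell markers 4 were in the table, with a sum of 4.53 to 6.76 in WT stage 2, 0.09 to 0.73 in WT stage 3 and 0 to 0.05 in the mutant. *Blk* carried that sum, and *Cd79a* was listed at 0 in all stage 2 libraries of both genotypes. The 7 listed myeloid markers of 12 summed to at most 2.65 and the only listed erythroid marker of 8 to at most 0.75. The part of *Themis*- and *Blk*-expressing cells in the differences below was not tested.

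*Ccnd2* stood apart from the other 9 genes by level. FPKM corrects for transcript length, so levels can be set side by side between genes. Over the 9 libraries the mean FPKM was 77.0 for *Ccnd2*, 12.9 for *Cdkn1b*, 9.95 for *Cdk4*, 7.30 for *Ccnd3* and 4.87 for *Cdkn2d*. It was 1.44 for *Ccne1*, 1.39 for *Cdk6*, 0.784 for *Cdkn2c* and 0.653 for *Ccne2*, and *Cdkn1a* was above 0 in 2 libraries only. The lowest *Ccnd2* value, 67.6 FPKM, lay above the highest value of any other member, 19.7 for *Cdkn1b*. From *Cdkn1b* downwards, each gene's range of library values overlapped that of the next in the order. The summed FPKM of the 10 genes was 114.0 to 119.0 in WT stage 2, 107.3 to 114.3 in WT stage 3 and 116.2 to 131.9 in the mutant, of which *Ccnd2* made up 59.3% to 74.5%.

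**Figure D1:**
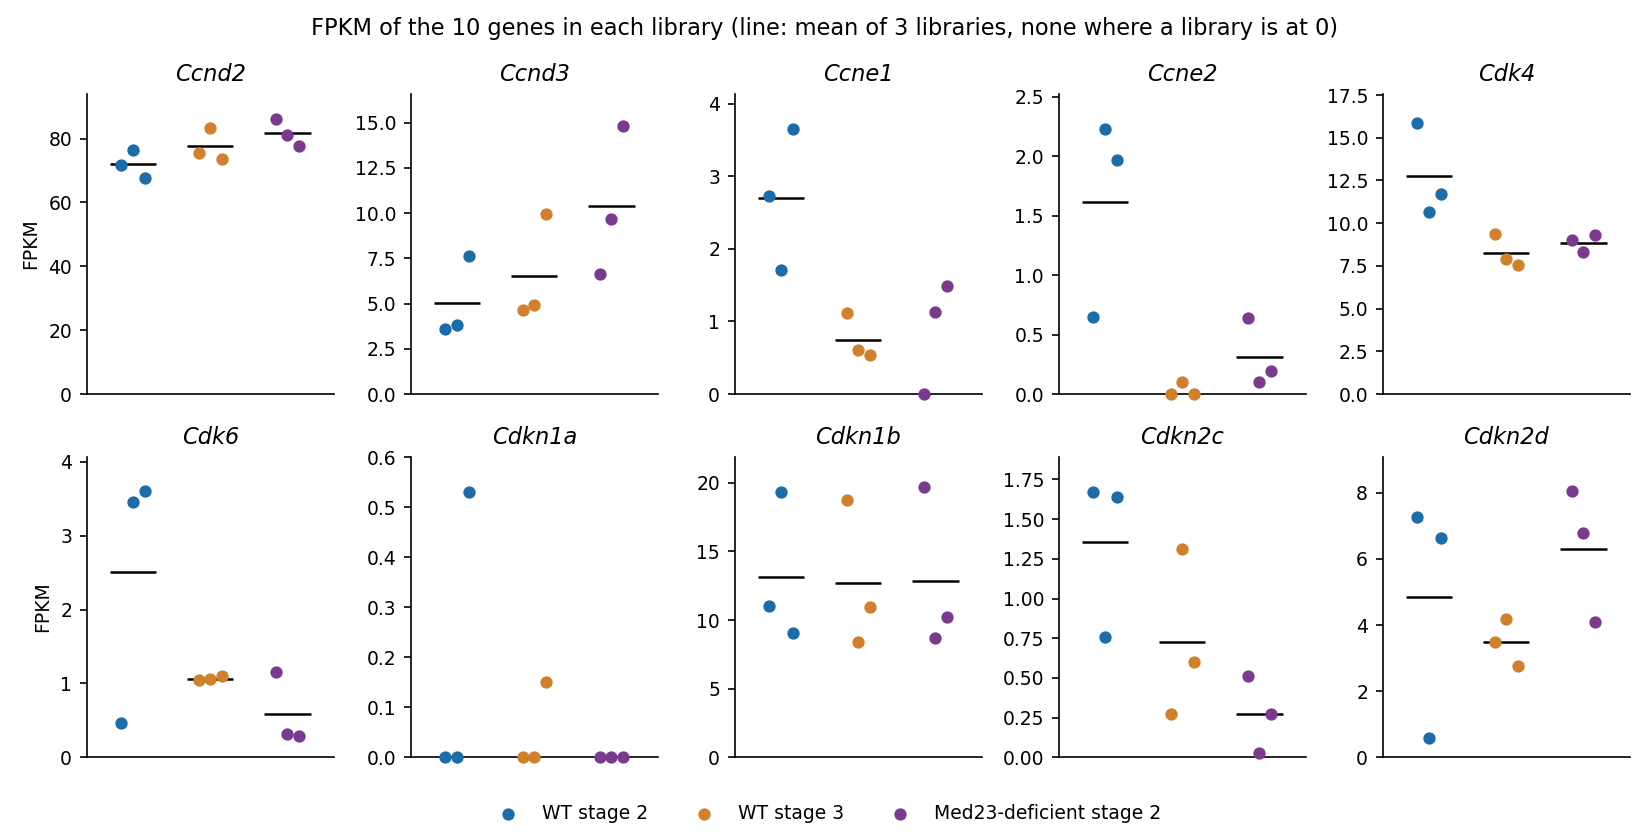
FPKM (vertical axes, each from 0 and on its own scale) of the 10 genes in libraries of WT stage 2, of WT stage 3 and of the *Med23*-deficient cells. Each point is 1 library and each line the mean of 3, left out where a library was listed at 0; *Ccnd2* lies at 67.6 to 86.2 in all libraries, while *Ccne1* and *Ccne2* are highest in WT stage 2.

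Between WT stages, the E cyclins were the only members past the fold and p thresholds by limma. The thresholds are those of the study, a fold change of at least 2 with an unadjusted p of at most 0.05. *Ccne1* and *Ccne2* passed them by limma, and both were lower in stage 3. No member passed in the other direction. Across the 20689 genes tested, the same thresholds called 1.9% lower and 1.7% higher by limma. The study itself used Ballgown. In a Ballgown-style linear model 0 of 10 members passed both thresholds, against 772 of the 20689 genes. By limma and a p of at most 0.05 after Benjamini-Hochberg adjustment, 0 of 10 members passed, against 1.67% of all genes, while 3 of 10 had an unadjusted p of at most 0.05 by limma (13.2% of all genes) and 2 of 10 in a Ballgown-style linear model (11.3%). The library values of 3 of 10 members, *Ccne1*, *Ccne2* and *Cdk4*, did not overlap between the stages, as for 17.8% of all genes. These 3 members were all lower in stage 3. The median difference of the members was -0.30 on the log2(FPKM + 1) scale and that of all tested genes -0.01.

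In *Med23*-deficient stage 2 cells, 0 of 10 members passed the fold and p thresholds against WT stage 2, where 1.32% of the 20674 genes tested were called lower and 0.798% higher. By limma with an adjusted p, 0 of 10 passed, against 0.213% of all genes. At an unadjusted p of at most 0.05 there were 4 of 10 members by limma, *Ccnd3*, *Ccne2*, *Cdk4* and *Cdkn2c*, against 9.58% of all genes, and 0 in the Ballgown-style model, against 7.58%. Library values did not overlap for 5 of 10 members, *Ccnd2* (higher in the mutant), *Ccne1*, *Ccne2*, *Cdk4* and *Cdkn2c* (lower), as for 14% of all genes. On the TPM scale 88 of 339 called genes were higher, against 165 of 437 here. The median difference of the members was -0.33 and that of all tested genes -0.01 on the log2(FPKM + 1) scale. Both comparisons use the same 3 WT stage 2 libraries, so a chance high or low value there enters both. The methods speak of 3 independent experiments, without saying how these or the mice map to the libraries, so the p-values measure the spread between libraries, whatever its source.

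**Figure D2:**
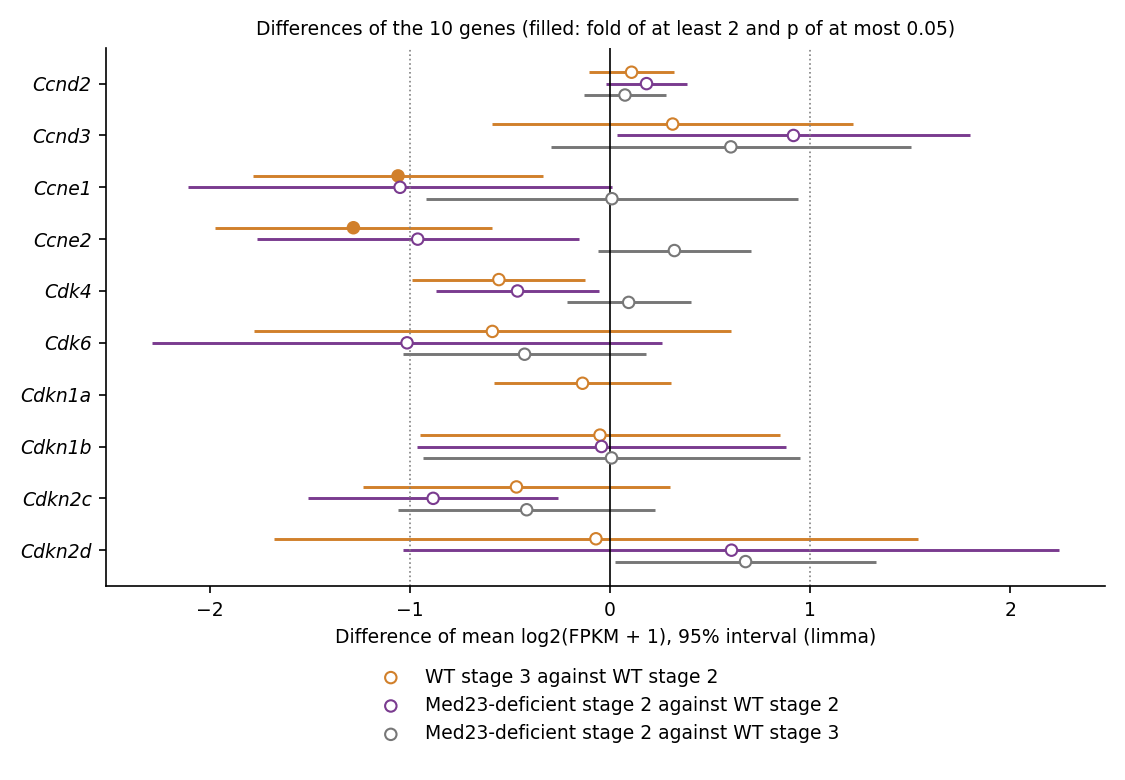
Difference of mean log2(FPKM + 1) (horizontal axis) with its 95% interval from limma for the 10 genes, in 3 comparisons shown by colour; filled points passed the fold and p thresholds. Only *Ccne1* at -1.06 and *Ccne2* at -1.28, WT stage 3 against WT stage 2, are filled; *Cdkn1a* is drawn for that comparison only, since it was listed at 0 throughout the mutant.

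Among the D cyclins, which sense mitogens and cytokines, *Ccnd2* was nearly level across the groups. The gene lies on chromosome 6 (mm10 chr6:127125162-127152193, minus strand). It measured 71.6, 76.5 and 67.6 FPKM in WT stage 2, 75.6, 83.3 and 73.7 in WT stage 3, and 86.2, 81.2 and 77.6 in the mutant. The stages of WT overlapped, and each mutant library lay above each WT stage 2 library. The difference on the log2(FPKM + 1) scale was 0.11 between stages (95% interval -0.11 to 0.32) and 0.18 between mutant and WT stage 2 (-0.02 to 0.38), so a 2-fold change lay outside both intervals. Neither passed the test (limma adjusted p = 0.667 and 0.561).

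*Ccnd3* (chr17:47505051-47599691, plus strand), the D cyclin on which the expansion of early thymocytes depends, had its highest values in the mutant. It measured 3.62, 3.80 and 7.64 FPKM in WT stage 2, 4.66, 4.92 and 9.96 in WT stage 3, and 6.62, 9.69 and 14.8 in the mutant. Replicate 3 was the highest library in every group, and all groups overlapped. Within each replicate number the order was the same, with WT stage 2 lowest and the mutant highest. The difference was 0.92 ± 0.36 (SE) for the mutant against WT stage 2 on the log2(FPKM + 1) scale (limma unadjusted p = 0.044, adjusted p = 0.495) and 0.31 ± 0.37 for stage 3 against stage 2 (adjusted p = 0.732). Without WT stage 2 replicate 3 or mutant replicate 1 the mutant difference was 1.21 or 1.17 and passed the fold and p thresholds. *Ccnd1*, the other D cyclin gene, was listed at 0 in 8 libraries and at 0.05 FPKM in WT stage 3 replicate 1. *Ccnd3* shares 361 bases with *Bysl* on the opposite strand, which was at 4.96 to 8.03 FPKM.

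The E cyclins, the partners of Cdk2 at the entry to S phase, were both lower outside WT stage 2. *Ccne1* (chr7:38097984-38107534, minus strand) measured 2.73, 1.71 and 3.65 FPKM in WT stage 2, 1.11, 0.60 and 0.54 in WT stage 3, and 0, 1.13 and 1.49 in the mutant. The WT stage 2 libraries lay above all 6 others. *Ccne1* fell by 1.06 ± 0.30 (SE) on the log2(FPKM + 1) scale from stage 2 to stage 3 (limma unadjusted p = 0.0117, adjusted p = 0.188). Against WT stage 2 the mutant differed by -1.05 ± 0.43, with an unadjusted p of 0.0512 (limma adjusted p = 0.527). The stage difference was -0.88 when WT stage 2 replicate 3 was left out and -0.97 when WT stage 3 replicate 3 was, under a 2-fold change, and -0.94 on the TPM scale. In the Ballgown-style model neither E cyclin passed both thresholds between the stages. The mutant difference of *Ccne1* passed the thresholds without WT stage 2 replicate 2 (-1.26) or mutant replicate 3 (-1.31).

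*Ccne2* (chr4:11191351-11204779, plus strand) measured 0.65, 2.23 and 1.97 FPKM in WT stage 2, 0, 0.10 and 0 in WT stage 3, and 0.64, 0.10 and 0.19 in the mutant. Each WT stage 2 library lay above all others, though WT stage 2 replicate 1 and mutant replicate 1 stood at nearly the same value. *Ccne2* fell by 1.28 ± 0.28 (SE) on the log2(FPKM + 1) scale from stage 2 to stage 3 (limma unadjusted p = 0.00389, adjusted p = 0.107), and the mutant differed from WT stage 2 by -0.96 ± 0.33 (unadjusted p = 0.0264, adjusted p = 0.417). Without WT stage 2 replicate 1, the stage difference was -1.59 and passed an adjusted p of 0.05 (limma adjusted p = 0.0487). Over all the alternatives run, its adjusted p ranged from 0.0487 to 0.395. The mutant difference passed the fold and p thresholds without WT stage 2 replicate 1 (-1.26) or mutant replicate 1 (-1.13). *Ccne2* overlaps 5622 bases of *Ints8* on the opposite strand, which stood at 3.25 to 6.27 FPKM, and whether strand was used in counting is not stated. In these bulk samples, fewer dividing cells and less RNA per cell cannot be told apart.

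The bases just before the *Ccne1* start are shown because *Ccne1* was called lower and has a promoter in the RefSeq promoter set (GRCm38.p6, the assembly of mm10), which matched 8 of the 10 members through 11 promoters. It is given 5′ to 3′ on the minus strand, chr7:38107535-38107740, and ends before the gene start of the deposited table. Capitals mark the GC box, GGGCGG or its complement CCGCCC, to which Sp1-type factors bind.
Ccne1: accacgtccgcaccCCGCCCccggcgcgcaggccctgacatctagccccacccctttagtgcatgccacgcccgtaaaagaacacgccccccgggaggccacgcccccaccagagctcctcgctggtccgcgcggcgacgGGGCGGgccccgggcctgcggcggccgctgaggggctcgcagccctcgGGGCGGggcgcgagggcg
The stretch held 3 GC boxes. A GC box was found in 8 of the 11 member promoters and in 35.7% of all 32851 promoters of the same 300 bases, on either strand. The promoters were not matched for base content, and G and C made up 76% of the *Ccne1* promoter, so no enrichment is read from this count. The E2F strings TTTCCCGC, TTTCGCGC, TTTGCCGC and TTTGGCGC were found in 0 of 11 member promoters and 2.27% of all promoters. At so low a share, 0 of 11 does not set the members apart. Other forms of E2F site were not searched. The printed stretch ends at the gene start, and a further GC box of the *Ccne1* promoter did not lie wholly within it.

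Both catalytic partners of the D cyclins were lower on average in WT stage 3 and in the mutant, without passing the thresholds. *Cdk4* (chr10:127063534-127067920, plus strand) measured 15.9, 10.6 and 11.7 FPKM in WT stage 2, 9.34, 7.90 and 7.54 in WT stage 3, and 8.99, 8.29 and 9.28 in the mutant. Every WT stage 2 library was above every other library. The mean was 12.7 ± 2.77 (SD, n = 3) in WT stage 2, 8.26 ± 0.95 in WT stage 3 and 8.85 ± 0.51 in the mutant. The differences from WT stage 2 were -0.56 ± 0.18 (SE) for stage 3 and -0.46 ± 0.17 for the mutant on the log2(FPKM + 1) scale. Their unadjusted p was 0.020 and 0.0325, and the adjusted p by limma was 0.242 and 0.447. The 95% intervals, -0.99 to -0.12 and -0.87 to -0.05, did not reach a 2-fold change on that scale. The stage interval came so near it that, with 1 FPKM added, a 2-fold fall of FPKM itself is not excluded. *Cdk4* shares 604 bases with *Tspan31* on the opposite strand, which was at 0 to 3.12 FPKM.

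The bases before the *Cdk4* start are shown for the E-box, in capitals (CACGTG, its own complement), the binding element of Myc-type factors, which was repeated there. They are given 5′ to 3′ on the plus strand, chr10:127063285-127063533.
Cdk4: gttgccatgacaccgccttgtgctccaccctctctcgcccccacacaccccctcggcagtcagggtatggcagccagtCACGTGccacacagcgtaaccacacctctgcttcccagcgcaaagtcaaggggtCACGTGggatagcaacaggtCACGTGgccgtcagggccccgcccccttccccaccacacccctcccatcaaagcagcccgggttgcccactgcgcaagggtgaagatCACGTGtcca
The stretch held 4 E-boxes. At least 1 E-box was found in 3 of the 11 member promoters, those of *Cdk4*, *Cdk6* and *Cdkn2c*, and in 7.15% of all promoters, again without matching for base content. *Myc* itself measured 23.4, 19.6 and 15.6 FPKM in WT stage 2, 23.2, 23.3 and 20.01 in WT stage 3 and 20, 17.5 and 15.5 in the mutant, with both stages of WT overlapping. The mutant libraries of *Myc* lay just below those of WT stage 3 (-0.32, limma unadjusted p = 0.0442, adjusted p = 0.464).

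*Cdk6* (chr5:3341485-3531008, plus strand) was spread widely within WT stage 2, at 0.46, 3.46 and 3.60 FPKM. It measured 1.04, 1.06 and 1.10 in WT stage 3 and 1.15, 0.31 and 0.29 in the mutant. WT stage 2 replicate 1 lay below all WT stage 3 libraries and the other WT stage 2 libraries above them. The difference from WT stage 2 was -0.59 ± 0.49 (SE) for stage 3 and -1.01 ± 0.52 for the mutant on the log2(FPKM + 1) scale (limma unadjusted p = 0.273 and 0.0999, adjusted p = 0.667 and 0.620). Without WT stage 2 replicate 1 the values were -1.13 and -1.56, past the fold and p thresholds in both comparisons (unadjusted p = 0.00528 and 0.00637), with an adjusted p of 0.159 and 0.304 by limma.

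Neither inhibitor of the family that binds Cdk4 and Cdk6 passed the thresholds in any comparison. *Cdkn2c* (chr4:109660876-109667189, minus strand) measured 1.67, 0.76 and 1.64 FPKM in WT stage 2, 0.27, 1.31 and 0.60 in WT stage 3, and 0.51, 0.03 and 0.27 in the mutant. The mutant libraries lay below those of WT stage 2, and WT stage 3 overlapped both. The difference from WT stage 2 was -0.88 ± 0.26 (SE) in the mutant on the log2(FPKM + 1) scale (limma unadjusted p = 0.0133, adjusted p = 0.329) and -0.47 ± 0.31 in stage 3 (unadjusted p = 0.186). A 2-fold change was passed without WT stage 2 replicate 2 (-1.08) or mutant replicate 1 (-1.02).

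*Cdkn2d* (chr9:21288410-21291407, minus strand) measured 7.28, 0.60 and 6.64 FPKM in WT stage 2, 3.49, 4.18 and 2.76 in WT stage 3, and 8.04, 6.77 and 4.09 in the mutant. WT stage 2 replicate 2 was the lowest of all 9 libraries and the other WT stage 2 libraries lay above all of WT stage 3. The difference from WT stage 2 was -0.07 ± 0.66 (SE) in stage 3 and 0.61 ± 0.67 in the mutant on the log2(FPKM + 1) scale (limma adjusted p = 0.968 and 0.762). Their 95% intervals, -1.68 to 1.54 and -1.03 to 2.25, held a 2-fold change in either direction. Without WT stage 2 replicate 2 the differences were -0.84 and -0.16. The mutant exceeded WT stage 3 by 0.68 ± 0.27 (unadjusted p = 0.0443, adjusted p = 0.464).

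*Cdkn1b* (chr6:134920401-134925513, plus strand), an inhibitor known to hold resting T cells in G1, was the most abundant inhibitor in every library. It measured 11.02, 19.4 and 9.07 FPKM in WT stage 2, 18.7, 8.42 and 10.9 in WT stage 3, and 19.7, 8.70 and 10.2 in the mutant. In each group 1 library stood well above the other 2, and the groups overlapped almost wholly. The means were 13.2 ± 5.47 (SD, n = 3), 12.7 ± 5.38 and 12.9 ± 5.96. The differences from WT stage 2 were -0.05 in stage 3 (95% interval -0.95 to 0.85) and -0.04 in the mutant (-0.96 to 0.88) on the log2(FPKM + 1) scale, and their sign turned under 2 scalings, a common upper quartile and quantile normalization.

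*Cdkn1a* (chr17:29090979-29100722, plus strand), the inhibitor that p53 induces after DNA damage, was listed at 0 in 7 of 9 libraries. It stood at 0.53 FPKM in WT stage 2 replicate 3 and at 0.15 in WT stage 3 replicate 3. The mutant was listed at 0 throughout, so no fold is given. The upstream *Cdkn1a* promoter is shown because the gene sat near 0 beside a p53 element, its capitals. The element was searched as 2 adjoining half-sites of the p53 consensus with at most 1 mismatch. It is given 5′ to 3′ on the plus strand, chr17:29090729-29090978.
Cdkn1a: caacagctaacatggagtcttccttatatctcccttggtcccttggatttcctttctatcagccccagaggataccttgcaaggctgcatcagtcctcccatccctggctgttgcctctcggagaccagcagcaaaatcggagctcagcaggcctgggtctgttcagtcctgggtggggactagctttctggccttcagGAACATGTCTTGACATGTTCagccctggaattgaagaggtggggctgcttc
Such an element was found in 1 of the 11 member promoters and in 0.0883% of all promoters. *Trp53*, the gene of p53, was expressed in all groups, at 16.4 to 20.6 FPKM in WT stage 2, 18.0 to 22.9 in WT stage 3 and 14.9 to 18.8 in the mutant. *Mdm2*, a p53 target and the ligase that degrades p53, was at 12.4 to 16.9, 14.0 to 14.9 and 9.12 to 15.4 FPKM. Neither passed a test in any comparison.

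Directly between *Med23*-deficient stage 2 and WT stage 3 cells, 0 of 10 members passed the fold and p thresholds, where 1.48% of the 20846 genes tested were called lower and 1.39% higher. This comparison also tests whether the differences from WT stage 2 were unequal, since the WT stage 2 libraries drop out of it. By limma with an adjusted p, 0 of 10 passed, against 1.33% of all genes, and 1 of 10, *Cdkn2d*, had an unadjusted p of at most 0.05 (10.2% of all genes), with 0 in the Ballgown-style model (12.8%). Library values overlapped for all 10 members, while they did not for 14.2% of all genes. The difference was 0.01 ± 0.38 (SE) for *Ccne1*, 0.32 ± 0.16 for *Ccne2* and 0.09 ± 0.13 for *Cdk4* on the log2(FPKM + 1) scale. The 95% interval of *Cdk4*, -0.22 to 0.40, did not reach a 2-fold change. For the E cyclins the added 1 FPKM compresses the difference and gives no such bound: with pseudocounts of 0.1 and 0.01 it was -0.49 and -1.49 for *Ccne1* and 1.48 and 3.45 for *Ccne2*, none past the thresholds. Genotype and stage differ together here and cannot be told apart.

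Within each library the members were also set against each other, which removes any factor common to a library. With 3 libraries against 3, the smallest p of an exact 2-sided permutation test is 0.10, so none of the 18 tests could pass 0.05, and the smallest adjusted p was 0.6. *Ccnd2* made up 93.4% ± 3.11 (SD, n = 3) of the D cyclin FPKM in WT stage 2, 92.2% ± 3.57 in WT stage 3 and 88.7% ± 4.48 in the mutant (exact p = 0.5 and 0.2 against WT stage 2). *Ccne1* made up 80.8%, 43.4% and 65.0% of the E cyclin FPKM in WT stage 2, 100%, 85.7% and 100% in WT stage 3, and 0%, 91.9% and 88.7% in the mutant. The share did not overlap between the WT stages (exact p = 0.10). It was 100% where *Ccne2* was listed at 0, and 0% where *Ccne1* was. *Cdk6* made up 17.0% ± 12.3 of the FPKM of the kinase pair in WT stage 2, 11.5% ± 1.38 in WT stage 3 and 5.99% ± 4.64 in the mutant (exact p = 0.4 for each against WT stage 2).

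*Cdkn2c* made up 18.7%, 55.9% and 19.8% of the *Cdkn2c* and *Cdkn2d* FPKM in WT stage 2, 7.18%, 23.9% and 17.9% in WT stage 3, and 5.97%, 0.441% and 6.19% in the mutant. The mutant libraries lay below all WT libraries of both stages (exact p = 0.10 for each stage). *Cdkn2c* itself was near 0 in the mutant, at 0.51, 0.03 and 0.27 FPKM. The 55.9% stood in the library with *Cdkn2d* at 0.60 FPKM. *Cdkn1a* reached at most 5.52% of its pair with *Cdkn1b*. The summed FPKM of the 4 inhibitors over that of the 4 cyclins was 0.240 ± 0.0171 (SD, n = 3) in WT stage 2, 0.202 ± 0.0653 in WT stage 3 and 0.209 ± 0.0816 in the mutant (exact p = 0.4 and 0.5 against WT stage 2). All groups overlapped in this ratio, to which *Ccnd2* and *Cdkn1b* contribute most.

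**Figure D3:**
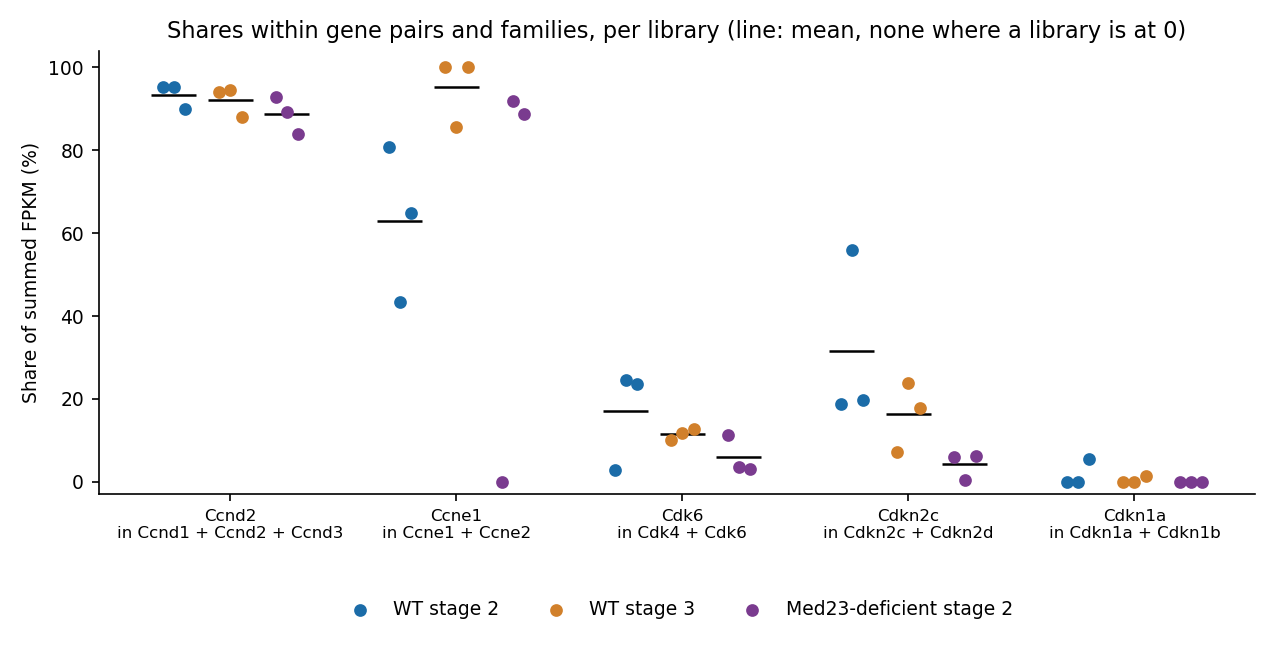
Share (vertical axis, percent of summed FPKM) that 1 gene holds of its pair or family in each library; points are libraries coloured by group, and lines are means of 3, left out where a library is at 0. The *Cdkn2c* share is 0.441% to 6.19% in the mutant, where the gene is at 0.03 to 0.51 FPKM, and 7.18% or more in every WT library.

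The genes that surround the members in the cell cycle were counted from lists by role. Against WT stage 2, the fold and p thresholds called 1.9% of all tested genes lower and 1.7% higher in stage 3. In the mutant they called 1.32% lower and 0.798% higher. Of 25 partners and family members in G1 control, 4 fell from WT stage 2 to stage 3 and none rose by the fold and p thresholds. These were *E2f2* (-1.79) and *E2f8* (-1.28), E2F family genes, *Ccna2* (-1.25), the cyclin of S phase and G2, and *Rb1* (-1.03), the retinoblastoma protein itself, with differences on the log2(FPKM + 1) scale. *Rb1* measured 12.3, 14.4 and 15.5 FPKM in WT stage 2, 5.22, 6.89 and 7.17 in WT stage 3 and 15.96, 9.92 and 14.6 in the mutant. It thus lay lower in stage 3 than in every stage 2 library of either genotype (limma adjusted p = 0.0461 between WT stages). The *Rb1* difference was -0.96 when WT stage 2 replicate 3 was left out and -0.90 when WT stage 3 replicate 1 was, under a 2-fold change. It was so too with a common upper quartile (-0.95), quantile normalization (-0.97) and the Ballgown-style model (-0.79). That model called 1 of the 25 partners lower. *E2f8* passed an adjusted p of 0.05 as well (0.0374), and 0 to 1 partners did so with 1 library left out. *Ccna2* lost the call when any of 4 libraries was left out, WT stage 2 replicate 1 or 3 or WT stage 3 replicate 1 or 2 (differences of -1.27, -0.85, -1.16 and -1.16).

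In the mutant, 4 of the 24 tested partners fell against WT stage 2, *E2f2* (-1.58), *E2f8* (-1.21), *Ccna2* (-1.17) and *E2f3* (-1.03). None rose, and 0 passed an adjusted p by limma, with 7 at an unadjusted p of at most 0.05 (9.58% of all genes). *Ccna2* lost the call without WT stage 2 replicate 1 (-1.20) or 3 (-0.77) or mutant replicate 1 (-1.04) or 3 (-1.08). It also lost it on the TPM scale (-0.97), with the replicate block and in the Ballgown-style model. *E2f3* lost the call without WT stage 2 replicate 1 (-1.002) or 3 (-0.95) or mutant replicate 1 (-1.07) or 2 (-0.71). It also lost it with a common upper quartile (-0.95), quantile normalization (-0.99), the TPM scale (-0.98) and the Ballgown-style model (-0.64). On the TPM scale *E2f8* was at -0.97 and 1 of the 24 partners was called. *Cdk2*, the kinase of the E cyclins, measured 13.7, 11.5 and 16.2 FPKM in WT stage 2, 8.57, 5.42 and 6.68 in WT stage 3 and 11.7, 13.1 and 12.2 in the mutant. Its stage difference of -0.92 missed a 2-fold change (limma unadjusted p = 0.00365, adjusted p = 0.103) and reached it without WT stage 2 replicate 2 (-1.03) or WT stage 3 replicate 1 (-1.07). The mutant differed from WT stage 3 by 0.78 in *Cdk2* and 0.95 in *Rb1* (unadjusted p = 0.00384 and 0.00413, under a 2-fold change).

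The other pocket proteins and E2F1 did not pass the thresholds. *Rbl1* was at 3.47 to 5.85 FPKM in WT stage 2, 5.06 to 6.97 in WT stage 3 and 4.79 to 6.52 in the mutant. *Rbl2*, the pocket protein of resting cells, was at 26.6 to 31.3, 20.4 to 23.6 and 25.9 to 33.1 FPKM, with a stage difference of -0.42 (limma unadjusted p = 0.00664, adjusted p = 0.139). *E2f1* was at 0.71 to 2.76, 0.18 to 1.88 and 0.25 to 1.78 FPKM. Of 16 genes that act in the turnover of G1 regulators, 1 fell in each comparison, *Cks1b*, which helps the ligase SCF-Skp2 to bind *Cdkn1b* protein. *Cks1b* measured 4.69, 3.80 and 8.16 FPKM in WT stage 2, 0, 0.96 and 0.10 in WT stage 3, and 1.95, 0.97 and 0 in the mutant. It fell by 2.29 in stage 3 and by 1.81 in the mutant on the log2(FPKM + 1) scale (limma adjusted p = 0.0569 and 0.279), and the call was lost in the Ballgown-style model in both comparisons. *Skp2* itself was at 0.45 to 1.46, 0.02 to 0.90 and 0.17 to 0.44 FPKM and did not pass.

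Genes of the later phases of the cycle were counted in the same way. Of 29 S phase genes that E2F factors control, 3 fell from WT stage 2 to stage 3, *Rrm2* (-1.89), *Chaf1a* (-1.73) and *Uhrf1* (-1.54), and none rose. In the mutant, 4 of 29 fell, *Rrm2* (-1.68), *Uhrf1* (-1.65), *Chaf1a* (-1.35) and *Cdc45* (-1.29). The Ballgown-style model called 0 and 1 of the 29. *Pcna* and *Mcm3*, parts of the replication machinery, passed an adjusted p of 0.05 in the mutant without reaching a 2-fold change (-0.92 and -0.84, limma adjusted p = 0.0304 and 0.0427), and 0 genes of the list did so when any 1 library was left out. *Pcna* measured 32.3, 34.0 and 34.4 FPKM in WT stage 2, 29.1, 32.4 and 25.5 in WT stage 3, and 16.4, 18.1 and 17.5 in the mutant. WT stage 3 thus overlapped WT stage 2, and the mutant lay below both.

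Of 25 G2 and M phase genes, 14 fell from WT stage 2 to stage 3 and 13 in the mutant, and none rose. The largest differences were those of *Mki67*, the proliferation marker, at -2.81 and -2.91, and of *Ccnb2*, a mitotic cyclin, at -2.41 and -2.77. *Mki67* measured 22.3, 29.7 and 34.8 FPKM in WT stage 2, 2.25, 7.47 and 1.69 in WT stage 3, and 4.05, 2.09 and 2.89 in the mutant. Further genes called in both were *Top2a* (-1.83 and -1.88), *Bub1b* (-1.64 and -1.35), *Cdc20* (-1.43 and -1.82) and *Kif11* (-1.28 and -1.70), with *Birc5* (-1.62) and *Tpx2* (-1.57) among the largest of the stage comparison and *Cenpf* (-1.45) of the mutant. By adjusted p, limma called 4 and 2 of the 25, and 0 to 2 and 0 with 1 library left out. The summed FPKM of the 25 genes was 77.6 to 95.7 in WT stage 2, 7.55 to 21.7 in WT stage 3 and 12.4 to 13.3 in the mutant. The list medians were -1.23 and -1.10, beside -0.01 for all tested genes in each comparison. Leaving out single libraries gave 12 to 14 and 13 to 16 called genes. Like this sum, *Ccne1* and *Ccne2* were higher in WT stage 2 than in WT stage 3 and the mutant. Whether their differences follow from the share of dividing cells was not tested.

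**Figure D4:**
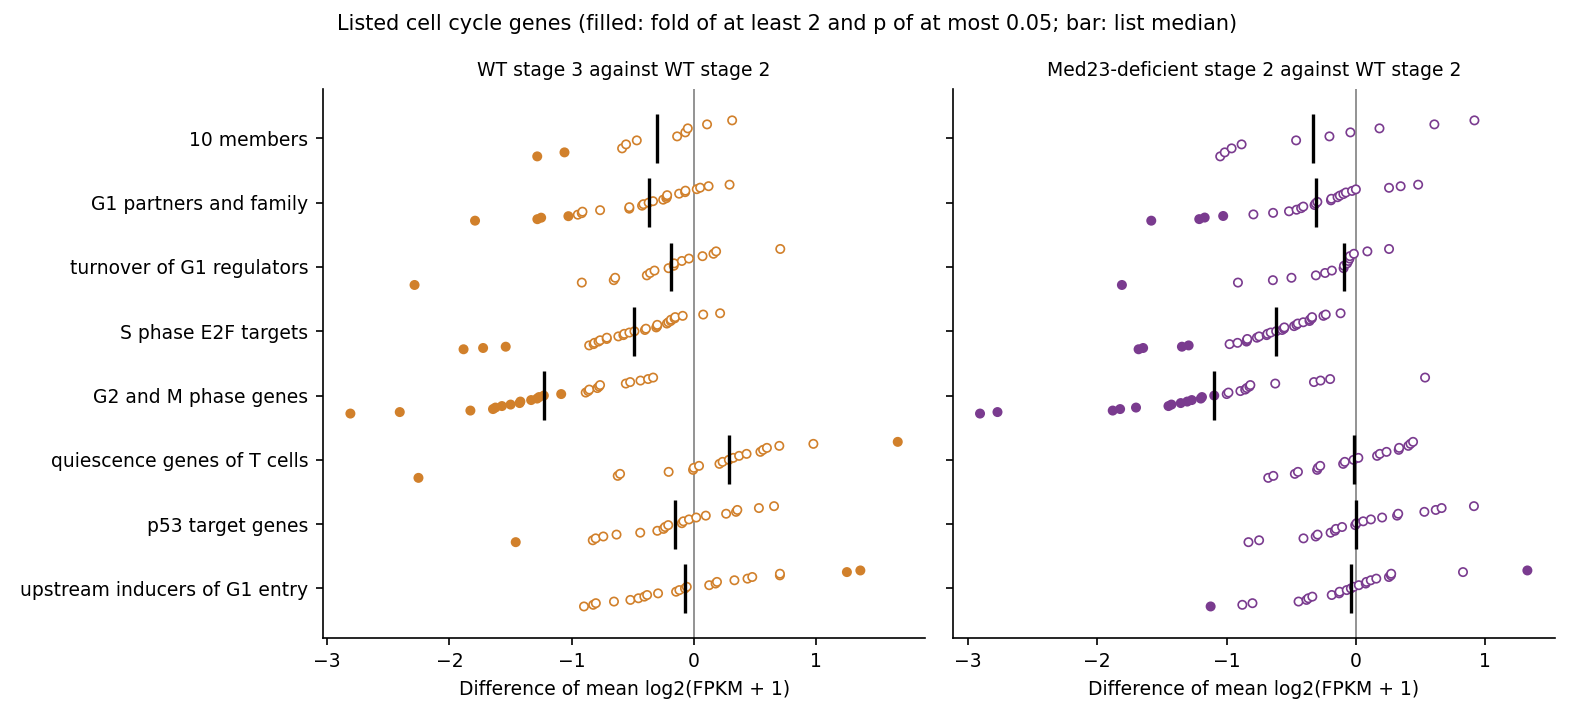
Difference of mean log2(FPKM + 1) from WT stage 2 (horizontal axes) for each tested gene of 8 lists, in WT stage 3 (left) and the mutant (right); points are genes, filled where the fold and p thresholds were passed, and bars are list medians. The G2 and M phase genes have medians of -1.23 and -1.10, the 10 members of -0.30 and -0.33.

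Genes that act upstream of the members came next. Of 23 inducers of G1 entry, 2 rose from WT stage 2 to stage 3, *Il2rb*, the receptor chain shared by interleukins 2 and 15 (1.36, limma adjusted p = 0.0171), and *Pim1*, a kinase downstream of cytokine receptors (1.25, adjusted p = 0.0420). Without WT stage 2 replicate 1, 2 genes of the list passed an adjusted p, and 0 genes of the list did with any other library left out or in the Ballgown-style model. *Il2rb* measured 103, 125 and 134 FPKM in WT stage 2, 302, 283 and 348 in WT stage 3, and 95.7, 138 and 154 in the mutant. In the mutant, *Il2ra*, the high-affinity chain of the interleukin 2 receptor, rose by 1.33 and *Egr1*, an immediate early transcription factor, fell by 1.12 on the log2(FPKM + 1) scale. *Il2ra* measured 0.95, 1.02 and 1.5 FPKM in WT stage 2 and 3.66, 3.40 and 6.57 in the mutant. Neither passed an adjusted p by limma (0.206 and 0.199), and the *Egr1* difference was -0.86 without mutant replicate 3.

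Of 20 genes tied to T cell quiescence, 19 were tested. *Tsc22d3*, a glucocorticoid-induced gene, rose by 1.67 and *S1pr1*, the receptor for exit from the thymus, fell by 2.25 from WT stage 2 to stage 3 (limma adjusted p = 0.364 and 0.0343), and none passed the thresholds in the mutant. With any 1 library left out, and in the Ballgown-style model, 0 genes of the list passed an adjusted p. *Tsc22d3* lay at 5.82, 6.24 and 24.2 FPKM in stage 3 and lost the call without WT stage 3 replicate 2 (1.95) or 3 (1.05) or WT stage 2 replicate 1 (1.16) or 2 (1.87). *Foxo1*, which activates *Cdkn1b* transcription in resting cells, measured 10.4, 8.43 and 10.6 FPKM in WT stage 2, 4.64, 7.02 and 6.84 in WT stage 3, and 6.18, 6.02 and 5.04 in the mutant. Its WT stage 2 libraries lay above all others, with differences of -0.60 and -0.68, under a 2-fold change. *Klf2*, a quiescence factor downstream of it, was at 24.6 to 27.5, 27.8 to 41.8 and 16.4 to 24.4 FPKM. Of 20 p53 target genes, *Ddit4*, an inhibitor of mTORC1, was the only one past the thresholds between WT stages (-1.46), and none was in the mutant. The list medians in stage 3 and the mutant were -0.37 and -0.30 for the G1 partners, -0.19 and -0.09 for turnover, -0.49 and -0.62 for the S phase genes, 0.29 and -0.02 for quiescence, -0.15 and 0.00 for p53 targets and -0.07 and -0.04 for the inducers.

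Between the mutant and WT stage 3, 0 of the 25 G1 partners and 0 of the 16 turnover genes passed the fold and p thresholds by limma. Nor did any of the 29 S phase or 25 G2 and M phase genes. An unadjusted p of at most 0.05 was reached by 4, 0, 3 and 3 genes of these lists, in that order. Over all tested genes the thresholds called 1.48% lower and 1.39% higher, and 10.2% had such an unadjusted p. With lists this short, these counts do not set them apart from all genes. In the lists of inducers, quiescence genes and p53 targets, *S1pr1* (1.62), *Ddit4* (1.57) and *Il2ra* (1.71) were higher in the mutant and *Il2rb* (-1.29) was lower, all past the thresholds. Of the 20 p53 targets, 2 passed in this comparison, both higher in the mutant, and only *Ddit4* of them is named here.

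The genes most like the called members over the 9 libraries were found by Pearson's r of log2(FPKM + 1) among genes with a mean of at least 5 FPKM. For *Ccne1* these were *Mthfd1* (r = 0.94), *Brd3* (0.93) and *Srsf4* (0.92), and for *Ccne2* *Hnrnpa2b1* (0.96), *Rbm26* (0.96) and *Hmgb2* (0.95). These r describe 9 libraries in 3 groups, which share their group means, and carry no test. *Hmgb2*, a chromatin protein, measured 57.4, 80.8 and 73.7 FPKM in WT stage 2, where *Ccne2* was likewise lowest in replicate 1 and highest in replicate 2.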

How the data were processed

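RNA was measured in 9 libraries of sorted thymic iNKT cells, made with a strand-preserving kit meant for low input. The authors trimmed reads (Trimmomatic 0.36), aligned them to mm10 with HISAT2, kept reads hitting few loci and quantified GENCODE vM12 genes with StringTie. The deposited values are FPKM with 2 decimals, replicates kept apart. Whether counting used strand is not given in the sources used here. Depth is unknown, so no counting error is given.

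From these, log2(FPKM + 1) was tested with limma 3.58.1 (R 4.3.3; mean-variance trend) over genes above 0 in at least 1 of the 6 libraries compared. A fold change here is on that scale and understates low genes. Shares were tested by exact permutation (scipy 1.17.1). Code was tested on simulated data. The members, lists and tests were chosen with earlier results of these data known. Named were all members, a preset set of regulators, listed genes past a threshold in the first 2 comparisons (at most the 6 largest per direction of a list) and the 3 most alike genes per called member. Promoter motifs and the 3 printed promoters were chosen after the values were seen. Alternatives were pseudocounts of 0.1 and 0.01, a mean FPKM of at least 1, quantile normalization, a common upper quartile, the TPM scale, limma without trend, all 9 libraries, the replicate number as block, a Ballgown-style model and each library left out. Promoters came from RefSeq (GRCm38.p6). Another marker of double-positive thymocytes is left out of the marker list and not reported here. Members' protein sequences were not used here.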

Additional observations from a re-analysis of the deposited data

How the results depend on the processing

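With 3 libraries a group and no counts, values near 0 FPKM limit *Ccne1*, *Ccne2*, *Cdk6*, *Cdkn1a* and *Cdkn2c* most. For WT stage 3 against WT stage 2, the number of members past fold and p was 2, and it was 1 with a mean FPKM of at least 1 (8 members tested), 1 on the TPM scale and 0 in the Ballgown-style model. Leaving out single libraries gave 1 to 3 by fold and p and 0 to 1 by adjusted p. For the mutant against WT stage 2 the number was 0, and it was 3 with pseudocounts of 0.1 and 0.01 (*Ccnd3*, *Ccne2* and *Cdkn2c*), and 1 with a mean FPKM of at least 1, a common upper quartile, quantile normalization, limma without trend and all 9 libraries, while single libraries left out gave 0 to 3. The cause was not tested. Between the mutant and WT stage 3 it was 0 under every alternative run. Scaling moved the median difference of genes averaging 1 FPKM or more from -0.05 to -0.13 (stage 3) and from -0.05 to -0.15 (mutant) on the TPM scale.

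Same-numbered libraries of different groups deviated from their group means with correlations of 0.00 to 0.27 (9 pairs, all positive, and 3 above 0.1, those of number 3). The labels do not say that a number marks a shared mouse or day, and not every library correlated best with its own number, so the samples were taken as unpaired. With the replicate block, 2, 0 and 0 members passed fold and p in the 3 comparisons and 0 passed an adjusted p in each. The block left 0 genes of every list past an adjusted p, and moved the count over all genes from 346 to 19 between WT stages, from 44 to 0 between the mutant and WT stage 2, and from 278 to 42 between the mutant and WT stage 3.

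Differences turned sign as follows, on the log2(FPKM + pseudocount) scale. In stage 3 against stage 2, the Ballgown-style model gave 0.65 for *Cdk6*, 0.16 for *Cdkn1a*, 0.22 for *Mdm2* and -0.14 for *Myc*. A common upper quartile gave 0.030 for *Cdkn1b* and 0.042 for *Mdm2*, quantile normalization 0.021 for *Cdkn1b* and 0.017 for *Mdm2*, pseudocounts of 0.1 and 0.01 gave 0.11 and 0.15 for *Cdkn2d*, and the TPM scale -0.00081 for *Trp53* and -0.073 for *Med23*. In the mutant against stage 2, a common upper quartile gave 0.056 for *Cdkn1b*, 0.022 for *Rb1* and 0.10 for *Rbl2*, quantile normalization 0.053 for *Cdkn1b* and 0.077 for *Rbl2*, and the Ballgown-style model 0.14 for *Rb1* and 0.044 for *Mdm2*. In the mutant against stage 3, pseudocounts of 0.1 and 0.01 gave -0.49 and -1.49 for *Ccne1*, the TPM scale -0.018 for *Cdkn1b* and the Ballgown-style model -0.00016 for *Cdkn1b*.

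With 1 library left out, the stage difference ran from -0.24 to 0.067 for *Cdkn1a*, -0.35 to 0.25 for *Cdkn1b*, -0.84 to 0.34 for *Cdkn2d*, -0.16 to 0.050 for *Mdm2* and -0.12 to 0.17 for *Med23*. The mutant difference from WT stage 2 ran from -0.37 to 0.25 for *Cdkn1b*, -0.16 to 1.02 for *Cdkn2d*, -0.20 to 0.11 for *Rb1*, -0.081 to 0.090 for *Rbl2*, -0.62 to 0.068 for *E2f1* and -0.27 to 0.0087 for *Myc*. The mutant difference from WT stage 3 ran from -0.25 to 0.41 for *Ccne1* and -0.32 to 0.31 for *Cdkn1b*. Over the other alternatives, the G1 partners called lower numbered 1 to 8 in stage 3 and 1 to 5 in the mutant, the S phase genes 0 to 6 and 1 to 8, and the G2 and M phase genes 8 to 21 and 9 to 20. None of the within-library shares moved past its replicate spread under the alternatives run, though rescaling a whole library cannot move a share within it. That spread was wide for some, so this says little about them. The mutant *Ccne1* share, at 0%, 91.9% and 88.7%, had an SD of 52.15.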
